A study of Mus musculus with 22 samples.

Results

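The change in transcripts from the full-grown oocyte to the zygote was followed in mice whose oocytes lacked Setd2, the enzyme that trimethylates lysine 36 of histone H3 (H3K36me3). The comparison set 2 knockout zygote libraries against 2 knockout full-grown oocyte libraries. Its members are the 9965 genes that reached 1 FPKM (fragments per kilobase of transcript, scaled to the library's mapped fragments) in at least 2 of these 4 libraries, out of 22592 gene symbols in the table and 12199 genes tested. Of the members, 186 reached that level in the oocytes only and 356 in the zygotes only, so the rule itself favours a difference between stages in them, and 238 reached it in 1 library of each stage. Females were 8 weeks old, and their treatment is described with the gonadotropins PMSG and hCG. A PMSG time is stated only for the oocytes and an hCG time only for the zygotes, so the stated treatment differs between the stages. The protocol times oocytes of the germinal vesicle stage at 48 h after PMSG and zygotes at 30 h after hCG. The knockout groups are labelled Setd2_KO with the stages FGO and 1C, and the zygotes come from knockout mothers. The control groups are labelled Setd2_Con with the same stages and hold 2 libraries each. A further knockout group of 2 libraries is labelled 1C at 48 h, and its values stand beside some of the results. Strain, the deleted part of Setd2, any Cre driver, the genotype of the controls beyond that label, the father's genotype and the number of cells pooled per library are not given in the sources used here. Nothing says that replicates came from separate animals, and the spread behind each p-value may be technical.

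A full-grown mouse oocyte has stopped transcribing and holds a large store of maternal RNA. When meiosis resumes, part of this store is recruited for translation by cytoplasmic lengthening of poly(A) tails, and much of the rest loses its tail and is degraded before the embryo relies on its own genome. H3K36me3 is laid down along the bodies of transcribed genes, and in the oocyte it helps to place DNA methylation. The series' design text names the mutant zygote as a test of whether altered transcription is passed on to the embryo.

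Fragments per library, estimated from the smallest FPKM steps of genes with 1 transcript, were 9.24 to 22.5 M in full-grown oocytes and 3.08 to 3.41 M in zygotes, so depth differed between the stages in both genotypes. Of all symbols, 31% and 31.2% were at 0 FPKM in the knockout oocytes and 38.9% and 38.3% in the knockout zygotes. Spearman's correlation between replicates across the genes tested, a description, was 0.982 in knockout oocytes and 0.959 in knockout zygotes. All 14 oocyte markers exceeded 1 FPKM in each library of both stages. Their summed level was 22420 and 27810 FPKM in knockout oocytes, 20010 and 21400 in knockout zygotes, 29420 and 30650 in control oocytes, and 10930 and 9440.0 in control zygotes. Of 23 granulosa and cumulus markers, 3 to 4 reached 1 FPKM in the knockout libraries, with a summed level of 37.7 to 42.6 FPKM in oocytes and 32.6 to 34.6 FPKM in zygotes. Amh, Amhr2, Foxl2 and Ptx3 were at 0 in all 4 of these. In the controls these markers summed to 46.6 and 43.9 FPKM in oocytes, with 6 at 1 FPKM or more in each, and to 19.8 and 26.4 FPKM in zygotes, with 2 and 3. Inha stood at 14.8 and 15.1 FPKM, Hsd3b1 at 4.95 and 4.03 FPKM and Cyp11a1 at 3.20 and 2.37 FPKM in control oocytes, against 0.816 and 0.519 FPKM, 0 in both libraries, and 0.293 and 0.323 FPKM in knockout oocytes. Inha and Hsd3b1 were at 0 in the zygotes of both genotypes. Inha, Hsd3b1 and Cyp11a1 were thus higher in the control oocytes. Fshr lay the other way, at 0.415 and 0.18 FPKM in control oocytes and 9.49 and 8.25 FPKM in knockout oocytes. Cyp19a1 and Nr5a2 were also higher in the knockout oocytes. The part of these markers in the control step and in the difference was not tested. Sperm markers summed to 6.16 to 19.4 FPKM over the 8 libraries of both stages, with Tnp1 and Smcp at 0 in each. Blood markers summed to at most 3.72 FPKM and stromal and epithelial markers to at most 21.0 FPKM. The part of other cells in the results was not tested beyond these values. In bulk libraries, fewer cells with a transcript and less RNA per cell cannot be told apart. Smart-seq2 primes on poly(A) tails, and tail length was not measured.

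Setd2 stood at 0.968 and 0.927 FPKM in the knockout oocytes and 1.3 and 1.73 FPKM in the knockout zygotes. The control oocytes had 4.75 and 4.35 FPKM and the control zygotes 12.1 and 8.85 FPKM. Each knockout library was below each control library of its stage. The knockout change was 0.28 ± 0.25 (limma adjusted p = 0.354) and the control change 1.10 ± 0.25 (limma adjusted p = 0.00727), and the difference between them did not pass (limma adjusted p = 0.271). Setd2 lost its control call without control oocyte replicate 2 (limma adjusted p = 0.0545).

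From oocyte to zygote, more knockout genes were called higher than lower, and fewer genes changed than in the control. A change is the difference of mean log2(FPKM + 1), zygote minus oocyte, given relative to the median of all genes tested, with its standard error. That median was 0.09 in the knockout, -0.06 in the control and 0.20 in the difference between them, and the tests are of the change against 0. Among the members, limma called 1515 higher and 605 lower in the knockout at an adjusted p below 0.05. These are 15.2% and 6.07% of the members, beside 12.6% and 5.10% of all 12199 genes tested. In the control, 2043 members were called higher and 2737 lower, or 20.5% and 27.5% of them, against 18.5% and 24.0% of all genes tested. Without adjustment, 3834 members had p below 0.05 in the knockout and 5629 in the control. The smallest p that an exact permutation test of 2 libraries against 2 can give is 0.33, so each call relies on spread shared between genes and groups.

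The split between higher and lower calls in the knockout moved with the scaling of the libraries. After rescaling by the median ratio of genes, 871 members were called higher and 1188 lower, and after quantile normalization 1075 and 794. The median change of all genes tested was then -0.06 and 0.01 in place of 0.09. In the control, quantile normalization gave 2801 higher and 2312 lower, with a median of 0.12. The count of knockout calls also rested on single libraries. It was 307 without knockout oocyte replicate 1, 862 without oocyte replicate 2, 605 without zygote replicate 1 and 2816 without zygote replicate 2.

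Calls in the control were set beside those in the knockout. Of the 2737 members lower in the control, 431 were lower in the knockout, 38 were higher and 2268 were not called. Their median change was -1.48 in the control and -0.50 in the knockout. Of the 2043 members higher in the control, 985 were higher in the knockout, 14 lower and 1044 not called, with median changes of 1.15 and 0.72. These members were chosen by their control call, and that choice itself favours a larger median in the control. Chosen the other way, the 605 members lower in the knockout had medians of -1.30 there and -1.35 in the control, where 431 were lower, 14 higher and 160 not called. The 1515 members higher in the knockout had medians of 1.06 and 1.00, and 985 of them were higher, 38 lower and 492 not called in the control. The knockout and control steps share no library. Across members, which are not independent replicates, the changes correlated with Pearson's r of 0.614 and Spearman's rho of 0.645. The test of the difference between the steps called 982 members with a higher change in the knockout and 98 with a lower one, or 9.85% and 0.983% of them, against 8.29% and 1.10% of all genes tested. Of the 982, 903 were lower in the control, and 67 of the 98 were higher in the control. The control values enter both the difference and the control call, so these overlaps are partly fixed by construction. In simulated data this test recovered 4.8% of 2-fold rises, so a difference that did not pass may still be present. Without adjustment, 2780 members had p below 0.05 in this test. It called 613 higher and 158 lower after median-ratio rescaling, 652 and 253 after quantile normalization, and 510 members in all with no filter on low values. Leaving out 1 library gave 308 (control oocyte replicate 2) to 1861 calls (knockout zygote replicate 1).

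**Figure D1:**
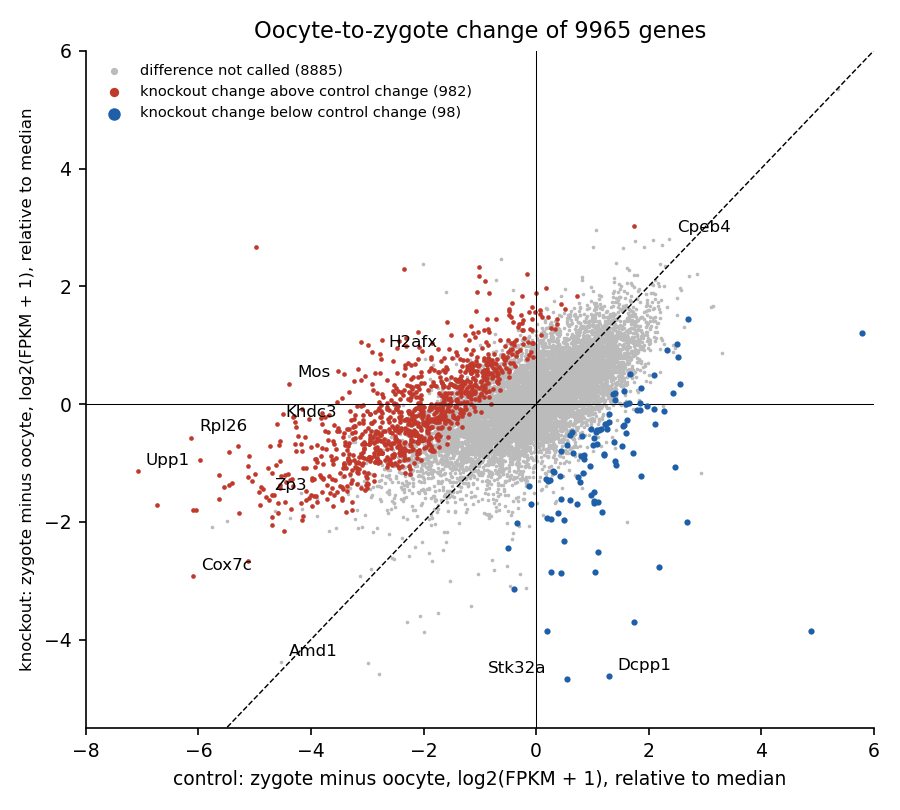
Change from oocyte to zygote of the 9965 members in the control (horizontal axis) and in the knockout (vertical axis), each the zygote minus oocyte mean of log2(FPKM + 1) relative to the median of all genes tested. Red points (982) had a higher change in the knockout and blue points (98) a lower one by limma's test of the difference, and the dashed line marks equal changes. Most red points lie left of 0 in the control, as with 903 of them that were called lower there.

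Mos fell in the control and stayed at a high level in the knockout zygote. Mos encodes the kinase that drives the MAP kinase pathway in meiosis and helps to hold the egg in metaphase II. It stood at 621 and 651 FPKM in knockout oocytes and 845 and 873 FPKM in knockout zygotes. Control oocytes had 759 and 872 FPKM and control zygotes 44.9 and 28.9 FPKM. The knockout zygotes were above the knockout oocytes in both libraries, while the control stages did not overlap and lay in the opposite order. The knockout change was 0.34 ± 0.21 (limma adjusted p = 0.188), the control change -4.40 ± 0.21 (limma adjusted p = 2.28e-06) and the difference 4.70 ± 0.30 (limma adjusted p = 6.79e-05).

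In several other maternal messages the control zygotes were also the lowest group. Plat, tissue-type plasminogen activator and a classic stored message of the oocyte, went from 828 and 951 to 1105 and 1042 FPKM in the knockout and from 578 and 657 to 114 and 136 FPKM in the control. The difference was 2.38 ± 0.32 (limma adjusted p = 0.00163). H1foo, the oocyte linker histone, had 6987 and 5987 FPKM in knockout oocytes and 9363 and 7515 FPKM in knockout zygotes, against 7245 and 6001 FPKM in control oocytes and 2714 and 2306 FPKM in control zygotes. Its difference of 1.58 ± 0.31 (limma adjusted p = 0.00717) was lost after median-ratio rescaling (limma adjusted p = 0.0531). In neither gene did the knockout stages pass the test, and in both the control zygotes lay below all other libraries of these groups.

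Khdc3, a subunit of the subcortical maternal complex, was lower in both knockout oocytes than in both control oocytes. It stood at 329 and 463 FPKM in knockout oocytes and 277 and 391 FPKM in knockout zygotes, which overlap, and fell from 975 and 894 to 42.7 and 30.0 FPKM in the control. The difference was 4.22 ± 0.42 (limma adjusted p = 0.000371). Upp1, uridine phosphorylase, had 156 and 244 FPKM in knockout oocytes and 49.7 and 174 FPKM in knockout zygotes, which also overlap, and fell from 313 and 289 to 1.5 and 0.828 FPKM in the control. Its difference was 5.89 ± 0.67 (limma adjusted p = 0.000925). H2afx encodes a histone variant that marks DNA breaks once phosphorylated, and it moved in opposite directions. It rose from 295 and 309 to 589 and 572 FPKM in the knockout, a change of 0.85 ± 0.20 (limma adjusted p = 0.0117), and fell from 211 and 229 to 25.9 and 34.9 FPKM in the control. The difference was 3.57 ± 0.29 (limma adjusted p = 0.000186). H2afx lost its knockout call without either knockout oocyte library or knockout zygote replicate 1, after median-ratio rescaling and with the compared groups fitted alone (limma adjusted p from 0.0518 to 0.0978).

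**Figure D2:**
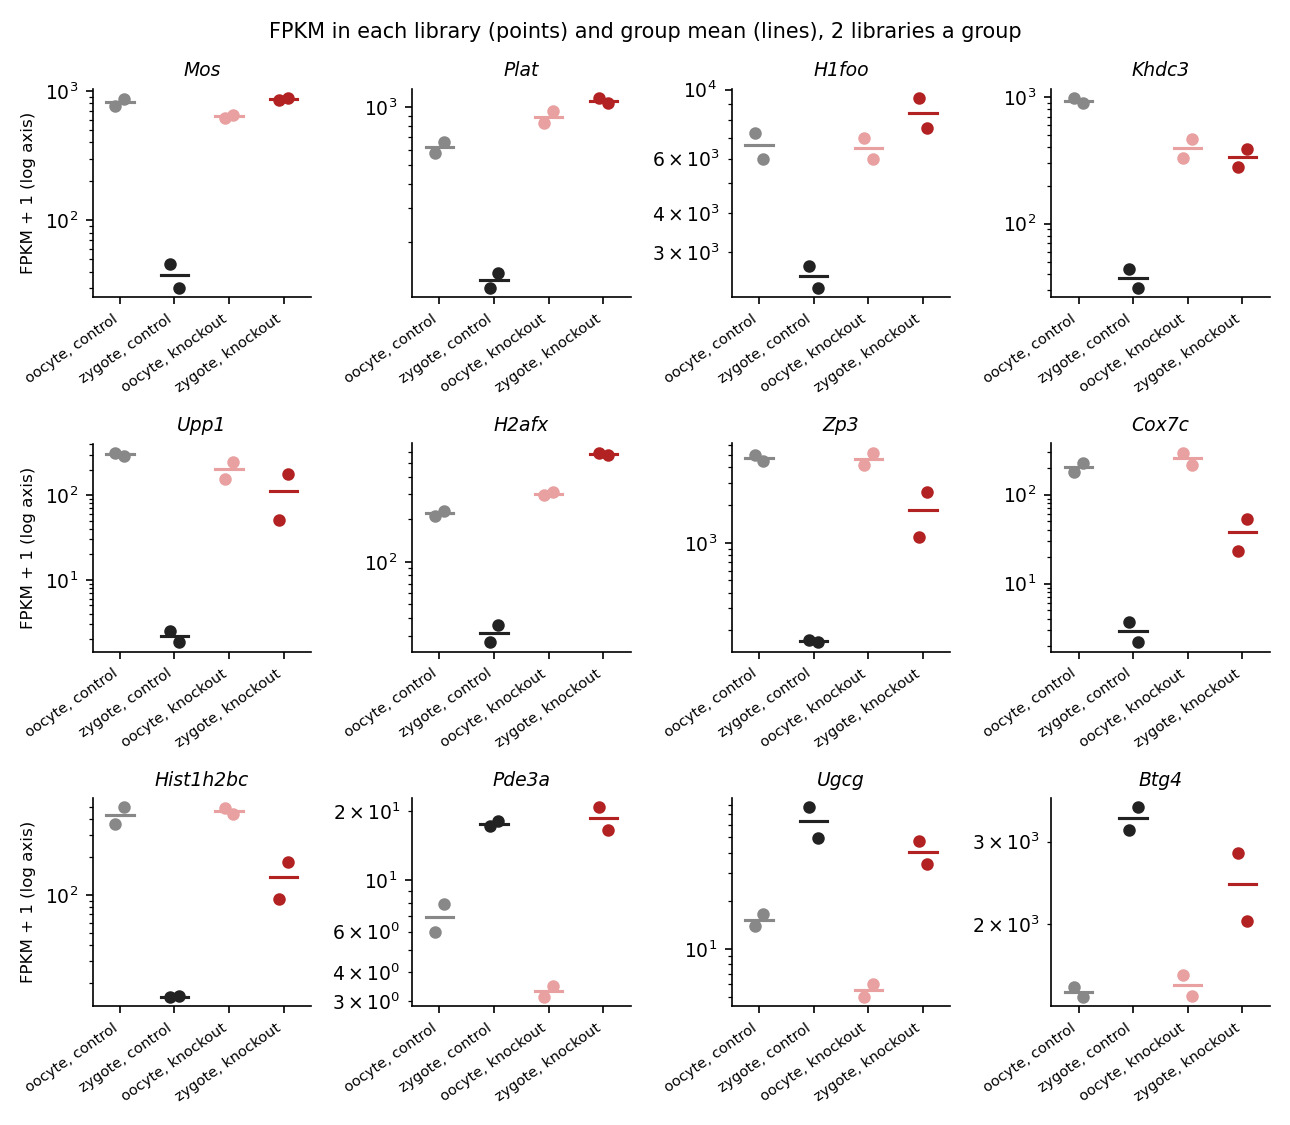
FPKM plus 1, on a log axis whose range differs between panels, of 12 members in each library of control oocytes, control zygotes, knockout oocytes and knockout zygotes (points), with the group mean as a line. In Mos, Plat, H1foo, Khdc3, Upp1 and H2afx the control zygotes lie below the other groups, while Pde3a, Ugcg and Btg4 are higher in the zygotes of both genotypes.

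The 3 zona genes fell in both genotypes, and by less in the knockout. Zp1, Zp2 and Zp3 encode the glycoproteins of the zona pellucida, which the growing oocyte secretes and which the sperm must cross. Zp3 stood at 4188 and 5217 FPKM in knockout oocytes and 1103 and 2534 FPKM in knockout zygotes, against 5023 and 4476 FPKM in control oocytes and 166 and 159 FPKM in control zygotes. The stages did not overlap in either genotype, and both knockout zygotes were above both control zygotes. The knockout change was -1.57 ± 0.32 (limma adjusted p = 0.0123), the control change -4.80 ± 0.32 (limma adjusted p = 5.33e-06) and the difference 3.18 ± 0.46 (limma adjusted p = 0.00225). Zp1 and Zp2 had knockout changes of -1.60 ± 0.24 (limma adjusted p = 0.00348) and -1.85 ± 0.39 (limma adjusted p = 0.0129), with differences of 2.38 ± 0.34 (limma adjusted p = 0.00213) and 2.68 ± 0.55 (limma adjusted p = 0.0102). Astl, the egg protease that cleaves ZP2 after fertilization, had a knockout change of -1.42 ± 0.34 (limma adjusted p = 0.023) and a control change of -1.90 ± 0.34 (limma adjusted p = 0.00122). Gdf9, an oocyte growth factor that acts on granulosa cells, stood at 3132 and 5288 FPKM in knockout oocytes and 2651 and 3031 FPKM in knockout zygotes, against 4918 and 4876 FPKM in control oocytes and 1336 and 1035 FPKM in control zygotes, with a difference of 1.34 ± 0.34 (limma adjusted p = 0.02). Bmp15, its partner, did not pass in the knockout (change 0.43 ± 0.23, limma adjusted p = 0.135). Of the 14 measured members of this list, 1 was higher (Kitl, also a granulosa marker, from 0.502 and 0.713 to 2.71 and 2.42 FPKM) and 4 lower in the knockout, 2 were higher and 9 lower in the control, and 7 had a higher change in the knockout. The lower calls are 28.6% of the list in the knockout and 64.3% in the control, beside 6.07% and 27.5% of all members. A higher change was called in 50% of the list and in 9.85% of all members. The list's median change was -0.47 in the knockout, -1.80 in the control and 0.84 in the difference, beside 0.06, -0.04 and 0.08 over all members. Zp2 lost its knockout call without knockout oocyte replicate 2 or knockout zygote replicate 1 (limma adjusted p from 0.0838 to 0.0947). Zp3 lost its knockout call without either knockout oocyte library and after quantile normalization (limma adjusted p from 0.0522 to 0.0772). Astl lost its knockout call without either knockout oocyte library or knockout zygote replicate 1, with 0.1 added in place of 1 and with no filter on low values (limma adjusted p from 0.0537 to 0.156). Kitl lost its knockout call without knockout oocyte replicate 1 or knockout zygote replicate 1 (limma adjusted p from 0.0535 to 0.0887). Zp2 lost its difference call without knockout oocyte replicate 1 or control oocyte replicate 2 and with no filter on low values (limma adjusted p from 0.0502 to 0.0563). Gdf9 lost its difference call without knockout oocyte replicate 1, either control oocyte library or control zygote replicate 2 and with no filter on low values (limma adjusted p from 0.0639 to 0.0809). With 1 library left out, the list had 0 to 2 members higher and 1 (without oocyte replicate 2) to 5 lower in the knockout. Those with a higher change in the knockout numbered 3 without knockout oocyte replicate 1 or control oocyte replicate 2, and at most 7.

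Genes of the subcortical maternal complex and other maternal-effect genes were mixed. Of 43 measured, 8 were higher and 2 lower in the knockout, 12 and 12 in the control, and 4 had a higher change in the knockout (Khdc3, Zar1, Nobox and Figla, the last 2 named after their values were seen). The knockout counts are 18.6% and 4.65% of the list, near the 15.2% and 6.07% of all members. The control counts are each 27.9%, beside 20.5% and 27.5% of all members. A higher change was called in 9.30% of the list and in 9.85% of all members. The median knockout change was 0.10, and after median-ratio rescaling 6 were called higher and 7 lower. Nlrp5, a core subunit of the complex, fell from 605 and 831 to 311 and 359.8 FPKM in the knockout and had a change of -1.17 ± 0.22 (limma adjusted p = 0.0102) there and -1.03 ± 0.22 (limma adjusted p = 0.0031) in the control. Ooep, another subunit, had 899 and 1226 FPKM in knockout oocytes and 725 and 1223 FPKM in knockout zygotes, which overlap. Zar1, which binds and stores maternal RNA, had 603 and 924 FPKM in knockout oocytes and 1352 and 1345 FPKM in knockout zygotes, against 1377 and 1945 FPKM in control oocytes and 1174 and 653 FPKM in control zygotes. Its difference was 1.56 ± 0.44 (limma adjusted p = 0.0331). Among the rises, Zbed3, a gene linked to the complex, went from 2324 and 2987 to 10394 and 6782 FPKM, a change of 1.58 ± 0.24 (limma adjusted p = 0.00232), beside 1.94 ± 0.24 (limma adjusted p = 0.00018) in the control. Foxo3, a transcription factor that restrains follicle activation, had a knockout change of 1.78 ± 0.32 (limma adjusted p = 0.00447). Npm2 and Dppa3, a nuclear chaperone and a protector of maternal DNA methylation, had knockout changes of -0.81 ± 0.26 (limma adjusted p = 0.0788) and -0.66 ± 0.19 (limma adjusted p = 0.0595). Nlrp5 lost its knockout call without knockout oocyte replicate 2 or knockout zygote replicate 1 (limma adjusted p from 0.0578 to 0.0785). Zar1 lost its difference call without knockout oocyte replicate 1, knockout zygote replicate 2, either control oocyte library or control zygote replicate 2, after median-ratio rescaling and with no filter on low values (limma adjusted p from 0.0514 to 0.152).

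Of 39 measured members of tandem families expressed in oocytes, 3 were higher and 10 lower in the knockout, or 7.69% and 25.6%, with a median change of -0.50, while 14 were higher and 11 lower in the control, with a median of 0.18. Over all members, 15.2% were higher and 6.07% lower in the knockout, and 20.5% and 27.5% in the control. The test of the difference called 3 higher and 2 lower, or 7.69% and 5.13% beside 9.85% and 0.983% of all members. Fbxw16, an F-box protein gene of the oocyte, fell from 668 and 589 to 188 and 260.5 FPKM in the knockout (-1.59 ± 0.21, limma adjusted p = 0.00232) and from 430.2 and 383 to 129 and 137 FPKM in the control. Oas1h, of the oocyte-expressed oligoadenylate synthetase paralogs, had changes of -1.23 ± 0.26 (limma adjusted p = 0.0142) and -1.35 ± 0.26 (limma adjusted p = 0.00162). Obox1, an oocyte homeobox gene, rose from 987 and 1009.5 to 1682 and 1727 FPKM (0.68 ± 0.16, limma adjusted p = 0.011). Oas1h lost its knockout call without either knockout oocyte library or knockout zygote replicate 1 (limma adjusted p from 0.0801 to 0.0863). Obox1 lost its knockout call without either knockout oocyte library, after median-ratio rescaling and with the compared groups fitted alone (limma adjusted p from 0.0565 to 0.113). With median-ratio rescaling no member of these families was called higher and 14 were called lower, and with quantile normalization 8 and 7. Without zygote replicate 2 the counts were 9 and 13, and without oocyte replicate 1 they were 0 and 1. The paralogs share sequence, so single members are uncertain where reads could be split between them.

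Among genes that store, recruit and remove maternal RNA, rises outnumbered falls in both genotypes. Of 51 measured members, 24 were higher and 1 lower in the knockout (Pabpn1l, named after its values were seen), and 26 were higher and 7 lower in the control. The higher calls are 47.1% and 51.0% of the list, beside 15.2% and 20.5% of all members. The median change was 0.55 in the knockout and 0.78 in the control, beside 0.06 and -0.04 over all members. The test of the difference called 4 higher and 1 lower, or 7.84% and 1.96% beside 9.85% and 0.983% of all members. Cpeb4, which binds cytoplasmic polyadenylation elements and recruits stored messages late in meiosis, rose from 1.02 and 0.6 to 14.2 and 10.8 FPKM in the knockout and from 0.966 and 1.52 to 9.08 and 11 FPKM in the control. Its changes were 2.81 ± 0.33 (limma adjusted p = 0.00131) and 2.37 ± 0.33 (limma adjusted p = 0.000415). Btg4, the adaptor that brings the CCR4-NOT deadenylase to maternal messages, rose from 1554 and 1408 to 2835 and 2026 FPKM in the knockout and from 1466 and 1399 to 3175 and 3544 FPKM in the control. The stages did not overlap in either genotype. Its knockout change was 0.61 ± 0.21 (limma adjusted p = 0.0409), its control change 1.29 ± 0.21 (limma adjusted p = 0.00102), and the difference did not pass (-0.73 ± 0.29, limma adjusted p = 0.292).

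Cnot6l, a catalytic subunit of the same deadenylase, went from 27.5 and 28.7 to 73.3 and 54.5 FPKM in the knockout (1.06 ± 0.31, limma adjusted p = 0.0308) and from 33.9 and 26.1 to 139 and 83.4 FPKM in the control. Dazl, an RNA-binding activator of translation, rose from 238 and 260.0 to 594 and 469.6 FPKM (0.99 ± 0.18, limma adjusted p = 0.00398). Ythdf3, a reader of methylated adenosine, and Sympk, a scaffold of the polyadenylation machinery, had knockout changes of 1.31 ± 0.22 (limma adjusted p = 0.00334) and 1.74 ± 0.24 (limma adjusted p = 0.00187). Btg4 lost its knockout call without either knockout oocyte library or knockout zygote replicate 1, after median-ratio rescaling, with 0.1 added in place of 1, with no filter on low values and with the compared groups fitted alone (limma adjusted p from 0.0542 to 0.305). Cnot6l lost its knockout call without either knockout oocyte library or knockout zygote replicate 1, after median-ratio rescaling, after quantile normalization and with no filter on low values (limma adjusted p from 0.0568 to 0.169). Dazl lost its knockout call without knockout oocyte replicate 1 (limma adjusted p = 0.0553). For the list as a whole, 13 members were called higher and 2 lower after median-ratio rescaling, and 4 higher and 0 lower without oocyte replicate 1.

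Of 55 measured genes of meiotic control, 11 were higher and 1 lower in the knockout (Anapc11, named after its values were seen). These are 20% and 1.82%, beside 15.2% and 6.07% over all members, and the median change was 0.12 beside 0.06. In the control, 15 were higher and 11 lower, or 27.3% and 20% beside 20.5% and 27.5% of all members. A higher change was called in 3.64% of the list and in 9.85% of all members. Pde3a, the phosphodiesterase whose action on cyclic AMP releases the oocyte from arrest, rose from 2.12 and 2.48 to 19.7 and 15.6 FPKM in the knockout and from 4.96 and 6.94 to 16.2 and 17 FPKM in the control, with changes of 2.40 ± 0.25 (limma adjusted p = 0.000923) and 1.42 ± 0.25 (limma adjusted p = 0.00179). Tpx2, a spindle assembly factor, Sgol2, which protects cohesin at centromeres, and Cdc27, a subunit of the anaphase-promoting complex, had knockout changes of 1.23 ± 0.19 (limma adjusted p = 0.00232), 1.36 ± 0.21 (limma adjusted p = 0.00232) and 1.51 ± 0.21 (limma adjusted p = 0.00187). The cyclins Ccnb1 and Ccnb2 did not pass in the knockout (0.58 ± 0.25, limma adjusted p = 0.0877, and -0.54 ± 0.22, limma adjusted p = 0.179). The 2 members with a higher change in the knockout were Mos and Bub1b, a spindle checkpoint kinase named after its values were seen. After median-ratio rescaling 8 members were called higher and 5 lower, and without oocyte replicate 1 the count higher fell to 4.

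The 15 largest rises came from genes of different roles. Ugcg, glucosylceramide synthase, rose from 4.01 and 5.02 to 46.6 and 32.8 FPKM in the knockout and from 13 and 15.5 to 75.7 and 48.7 FPKM in the control. The changes were 2.78 ± 0.26 (limma adjusted p = 0.000824) and 2.08 ± 0.26 (limma adjusted p = 0.000198). Strn, a scaffold of the STRIPAK phosphatase complex, rose from 3.91 and 3.76 to 41.6 and 27.5 FPKM (2.76 ± 0.38, limma adjusted p = 0.00206). Cd300c, an immunoglobulin-like receptor gene, rose from 0.218 and 3.43 to 19.6 and 16.8 FPKM (2.95 ± 0.46, limma adjusted p = 0.00285), beside 2.5 and 1.89 FPKM in control oocytes and 5.38 and 5.37 FPKM in control zygotes. The blood and immune markers summed to 1.56 to 3.19 FPKM in the knockout oocytes and 1.05 to 3.72 FPKM in the knockout zygotes, and their part in this rise was not tested. Klhl28, Secisbp2l, Mtfr2, Vgll4 and Cyp39a1 had knockout changes from 2.27 to 2.70 (limma adjusted p from 0.000923 to 0.00308). Atp6v0c-ps2, a pseudogene of a proton pump subunit, is also among the 15 and is uncertain, because reads can be shared with its parent gene. Dbt, a subunit of the branched-chain keto acid dehydrogenase, went from 0.461 and 0.514 to 6.8 and 6.75 FPKM in the knockout and from 20.9 and 13.9 to 3.06 and 1.84 FPKM in the control, a difference of 4.60 ± 0.87 (limma adjusted p = 0.00824). Dbt lost its knockout call without either knockout oocyte library or either knockout zygote library and with no filter on low values (limma adjusted p from 0.0535 to 0.134). Atp6v0c-ps2 lost its knockout call without knockout oocyte replicate 1 (limma adjusted p = 0.0746).

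Cytoplasmic polyadenylation elements (CPEs) near the end of a message are the binding sites of the CPEB proteins that lengthen its poly(A) tail during meiosis. The motifs TTTTAT and TTTTAAT were searched on the sense strand in the last 100 nt of 3′ UTRs of at least 100 nt, in GENCODE vM21 transcripts of the GRCm38 build. These 2 motifs do not contain each other. A coding transcript was found for 95.5% of members. At least 1 motif was present in 20.5% of the 8912 members with such a UTR, in 28.2% of members higher in the knockout and in 12.1% of those lower. In the control step the shares were 29.0% of the higher and 13.7% of the lower members. Median 3′ UTR length was 1629 nt in the higher and 326 nt in the lower members of the knockout, and the part of length in these shares was not tested. A match is a description and not a shown binding site. The windows below are of members that rose in both genotypes (Btg4 and Ugcg) and of members whose level stayed or rose in the knockout and fell in the control (H1foo, H2afx and Plat). They show how the motif, in capitals, sits in the 3′ end of messages with different changes. Positions are in GRCm38 and each sequence reads 5′ to 3′ on the gene's own strand.
Btg4, chr9:51119803-51119832 (+ strand): atccctTTTTATgtctttttaaaagtttga
Ugcg, chr4:59222762-59222791 (+ strand): atcatgTTTTATtatttaaaatcattgtct
H1foo, chr6:115950163-115950192 (+ strand): tgaagcTTTTATtgtctaataagctgtcac
H2afx, chr9:44336033-44336062 (+ strand): ggctaaTTTTATtaaaggatcgtttggttt
Plat, chr8:22782750-22782779 (+ strand): tttataTTTTAATctattttagtttttact
Mos, Dazl, Cnot6l and Slbp hold neither motif in this window of the transcript used. Both kinds of change occurred in messages with a motif and in messages without one. Other motif forms, other transcripts and earlier parts of the 3′ UTR were not searched. A message without these 2 motifs may thus hold other elements.

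Chromatin enzymes included rises in both genotypes. Of 24 measured enzymes that write or erase H3K36 and H3K4 methylation, 9 were higher and 0 lower in the knockout, 12 were higher and 3 lower in the control, and 0 passed limma's test of the difference, where 4 higher and 2 lower had an unadjusted p below 0.05. Without adjustment 11 were higher and 1 lower in the knockout. The higher calls are 37.5% of the list in the knockout and 50% in the control, beside 15.2% and 20.5% of all members. Kdm4a, which removes methyl groups from H3K9 and H3K36, rose from 0.768 and 0.273 to 8.31 and 6.39 FPKM in the knockout and from 1.17 and 1.07 to 7.37 and 9.35 FPKM in the control. The changes were 2.38 ± 0.27 (limma adjusted p = 0.000923) and 2.19 ± 0.27 (limma adjusted p = 0.000172). Ash1l, an H3K36 methyltransferase, and Mll3, an H3K4 methyltransferase, had knockout changes of 1.33 ± 0.25 (limma adjusted p = 0.00471) and 1.41 ± 0.29 (limma adjusted p = 0.00824). Ash1l lost its knockout call without knockout oocyte replicate 1 (limma adjusted p = 0.0616). Mll3 lost its knockout call without knockout oocyte replicate 1 or knockout zygote replicate 1 (limma adjusted p from 0.0609 to 0.0763). The list's median change was 0.48 in the knockout and 0.90 in the control. After median-ratio rescaling 6 were called higher and 1 lower, and without oocyte replicate 1 the count higher was 1.

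Among 14 genes of DNA methylation and its readers, 4 were higher (Tet2, Tet3, Dnmt3a and Dnmt3b) and 0 lower in the knockout by limma, and 8 and 1 without adjustment. The higher calls are 28.6% of the list, beside 15.2% of all members. Tet3, which oxidises 5-methylcytosine in the zygote, rose from 13 and 13.4 to 73.2 and 50.9 FPKM in the knockout and from 18.2 and 21 to 108 and 61.1 FPKM in the control. Its changes were 2.04 ± 0.27 (limma adjusted p = 0.00187) and 2.06 ± 0.27 (limma adjusted p = 0.000302), and each zygote was above each oocyte of its genotype. Dnmt3a and Dnmt3b, the de novo methyltransferases, rose from 6.4 and 7.15 to 13.7 and 15.1 FPKM and from 2.32 and 3.71 to 17.8 and 11.4 FPKM. Their changes were 0.90 ± 0.27 (limma adjusted p = 0.0317) and 1.86 ± 0.33 (limma adjusted p = 0.00451). Dnmt3a lost its knockout call without either knockout oocyte library or either knockout zygote library, after median-ratio rescaling, after quantile normalization and with no filter on low values (limma adjusted p from 0.0538 to 0.179). Dnmt3b lost its knockout call without knockout oocyte replicate 1 (limma adjusted p = 0.0625). Tet2 lost its knockout call without either knockout oocyte library or knockout zygote replicate 1 (limma adjusted p from 0.0517 to 0.0795). Without oocyte replicate 1 the count higher was 1.

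Replication-dependent histone genes, whose canonical messages end in a stem-loop, fell more often than they rose. Of 44 measured, 0 were higher and 11 lower in the knockout by limma (1 and 17 without adjustment), with a median change of -0.70, and 3 were higher and 16 lower in the control, with a median of -0.60. The lower calls are 25% and 36.4% of the list, beside 6.07% and 27.5% of all members. Hist1h2bc fell from 487 and 434 to 91.7 and 181 FPKM in the knockout and from 360.1 and 491 to 14.5 and 14.7 FPKM in the control. Its changes were -1.91 ± 0.28 (limma adjusted p = 0.00301) and -4.70 ± 0.28 (limma adjusted p = 4.68e-06), and the difference was 2.74 ± 0.40 (limma adjusted p = 0.00225). Hist1h2bf and Hist1h2bg had knockout changes of -2.66 ± 0.36 (limma adjusted p = 0.00221) and -2.15 ± 0.33 (limma adjusted p = 0.00321). Near-identical copies make single members of this family uncertain. Without oocyte replicate 1 the count lower was 3, and with median-ratio rescaling it was 14. Slbp, which binds that stem-loop, rose from 939 and 1060.4 to 2684 and 1928 FPKM in the knockout (1.10 ± 0.22, limma adjusted p = 0.00715) and from 1092 and 1219 to 2182 and 3010.2 FPKM in the control. Slbp lost its knockout call without knockout oocyte replicate 1 (limma adjusted p = 0.0788).

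Falls of ribosomal protein messages were many in the control and fewer in the knockout. Of 74 measured genes of the cytosolic ribosome, 1 was higher (Rpl19, named after its values were seen) and 13 lower in the knockout, 1 higher and 65 lower in the control, and 47 had a higher change in the knockout. The lower calls are 17.6% of the list in the knockout and 87.8% in the control, beside 6.07% and 27.5% of all members. A higher change was called in 63.5% of the list and in 9.85% of all members. The list's median change was -0.38 in the knockout and -2.54 in the control, beside 0.06 and -0.04 over all members. Rps2 stood at 60.9 and 76.5 FPKM in knockout oocytes and 73 and 83.8 FPKM in knockout zygotes, against 131 and 139.7 FPKM in control oocytes and 10.9 and 10.9 FPKM in control zygotes. The difference was 3.51 ± 0.31 (limma adjusted p = 0.000243). Rpl5 went from 25.1 and 30.8 to 31.9 and 54.6 FPKM in the knockout and from 29.2 and 24.6 to 2.07 and 2.45 FPKM in the control, a difference of 3.47 ± 0.39 (limma adjusted p = 0.000819). Rpl26 was listed at 0.0117 and 0 FPKM in the control zygotes and at 21.9 and 47.5 FPKM in the knockout zygotes. In control zygote replicate 1, 1 fragment is worth 0.147 FPKM on a 2 kb transcript and more on a shorter one. The Rpl26 transcript measures 606 nt, so 0.0117 FPKM is less than 1 whole fragment and the value is uncertain. Rps18 is uncertain, since its 2 knockout oocyte libraries gave 0.339 and 9.79 FPKM and reads can be shared with retrocopies.

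For the mitochondrial lists, falls outnumbered rises in both genotypes. Of 76 measured genes of oxidative phosphorylation, 1 was higher and 34 lower in the knockout, 1 was higher and 67 lower in the control, and 41 had a higher change in the knockout. The lower calls are 44.7% and 88.2% of the list, beside 6.07% and 27.5% of all members. A higher change was called in 54% of the list and in 9.85% of all members. The median changes were -0.96 and -2.49. Cox7c, a subunit of cytochrome c oxidase, fell from 293 and 216 to 22.1 and 52.9 FPKM in the knockout and from 181 and 223 to 2.66 and 1.18 FPKM in the control. Its knockout change was -2.93 ± 0.39 (limma adjusted p = 0.00217) and the difference 3.12 ± 0.55 (limma adjusted p = 0.00568). Atp5j, of the ATP synthase, and Ndufb5, of complex I, had knockout changes of -1.72 ± 0.33 (limma adjusted p = 0.0092) and -1.92 ± 0.28 (limma adjusted p = 0.00283). Cox17, a copper chaperone for cytochrome c oxidase, stood at 76.8 and 191 FPKM in the knockout zygotes and 7.87 and 3.74 FPKM in the control zygotes, after 422 and 333 FPKM in knockout oocytes and 695 and 744 FPKM in control oocytes. Of 74 mitochondrial ribosomal proteins, 2 were higher and 11 lower in the knockout, 1 and 59 in the control, and 31 had a higher change in the knockout. The lower calls are 14.9% and 79.7% of that list, and the higher changes 41.9%. Of 37 proteasome genes, 2 were higher and 3 lower in the knockout, 4 and 27 in the control, and 10 had a higher change in the knockout. The lower calls are 8.11% in the knockout, near the 6.07% of all members, and 73.0% in the control. The higher changes are 27.0% of this list. Atp5j lost its knockout call without knockout oocyte replicate 1 (limma adjusted p = 0.0853).

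The 2 knockout zygote libraries differed from each other in these lists. Replicate 2 was above replicate 1 in 70 of 74 ribosomal protein genes, with a median gap of 1.03 on the log2 scale, and in 72 of 76 genes of oxidative phosphorylation, with a median gap of 0.97. Over all members the gap was 0.11. The gap between the control zygotes was -0.01 and -0.06 in the same lists. Taken against the mean of the knockout oocytes, the median change of ribosomal proteins was -0.93 with zygote replicate 1 alone and -0.17 with zygote replicate 2 alone, relative to the median of the members. For oxidative phosphorylation these were -1.46 and -0.68, and for mitochondrial ribosomal proteins -1.05 and -0.35. Each was nearer to 0 than the control medians of -2.54, -2.49 and -1.74.

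Counts of knockout calls in these lists moved with the library left out. Without zygote replicate 1, 4 ribosomal protein genes were called higher and 0 lower, and without zygote replicate 2, 0 higher and 31 lower. For oxidative phosphorylation, 5 were lower without zygote replicate 1, 55 without zygote replicate 2, 2 without oocyte replicate 1 and 12 without oocyte replicate 2. Proteasome genes lower in the knockout moved with the scaling, at 17 after median-ratio rescaling and 3 after quantile normalization. In contrast, genes with a higher change in the knockout outnumbered those with a lower one in each case, at 23 to 61 of the ribosomal protein genes and 18 to 59 of the oxidative phosphorylation genes when 1 library was left out.

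**Figure D3:**
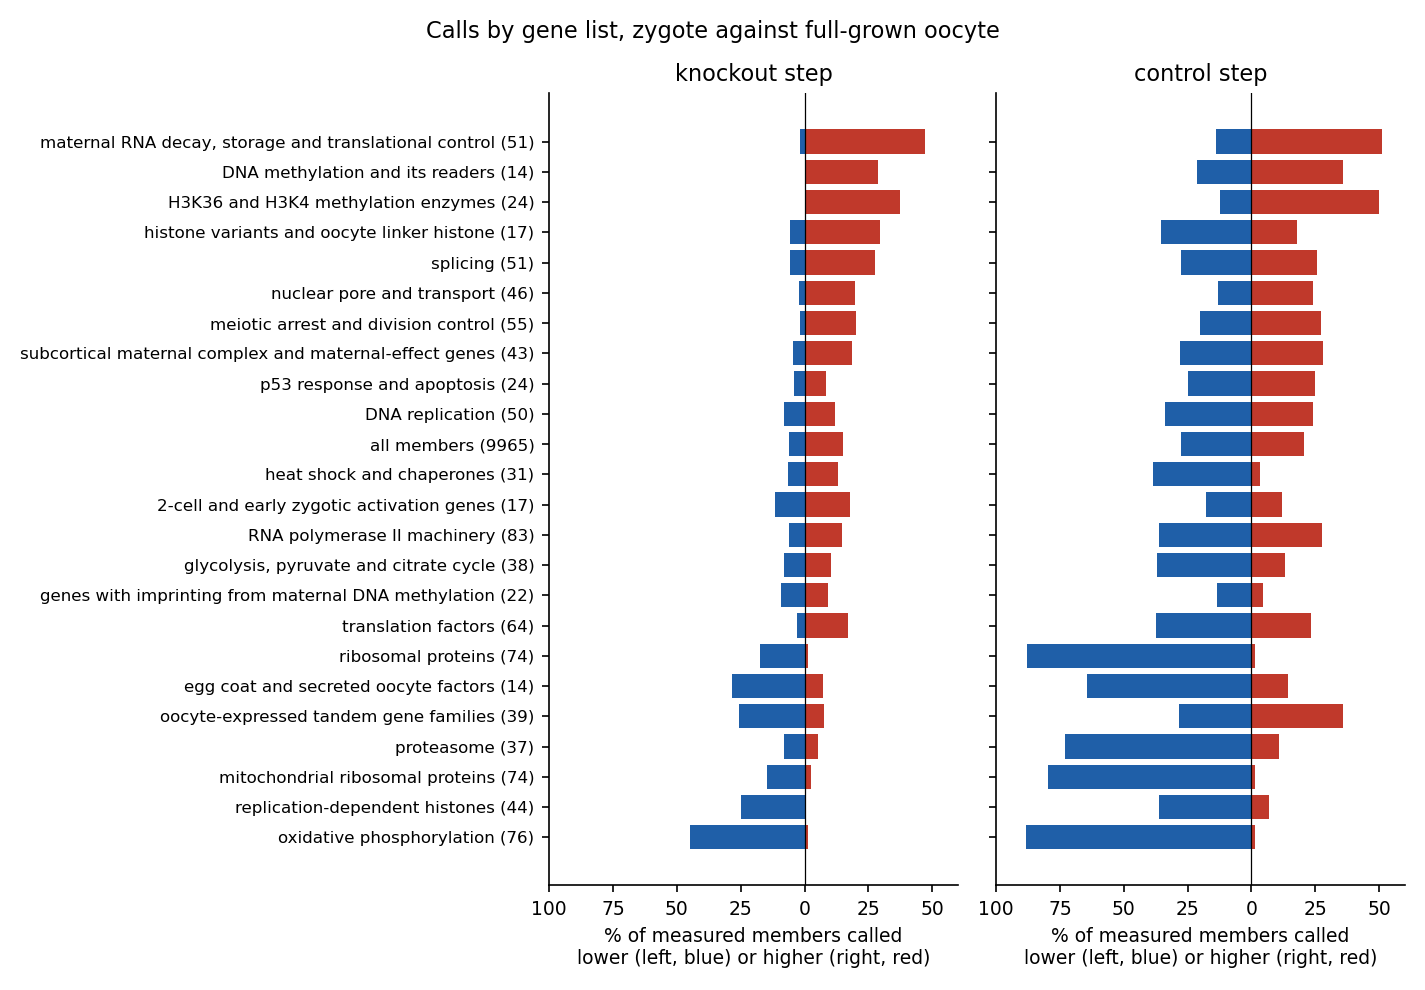
Share of the measured members of each gene list (number in brackets) called lower (blue, to the left) or higher (red, to the right) from oocyte to zygote, in the knockout and in the control, ordered by the median knockout change. Ribosomal proteins, oxidative phosphorylation and mitochondrial ribosomal proteins have long blue bars in the control (65 of 74, 67 of 76 and 59 of 74) and shorter ones in the knockout (13, 34 and 11).

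Splicing genes and nuclear transport genes were also counted. Of 51 splicing genes, 14 were higher and 3 lower in the knockout, or 27.5% and 5.88% beside 15.2% and 6.07% over all members. In the control 13 were higher and 14 lower, or 25.5% and 27.5% beside 20.5% and 27.5% over all members. A higher change in the knockout was called in 9, or 17.65% beside 9.85%. Srsf11, a splicing regulator, rose from 5.83 and 10.9 to 46.8 and 34.4 FPKM (2.10 ± 0.29, limma adjusted p = 0.00212), beside 7.91 and 9.51 FPKM in control oocytes and 16.7 and 14.1 FPKM in control zygotes. Snrpd2, a core protein of spliceosomal particles, had 70.7 and 133 FPKM in the knockout zygotes and 1.84 and 2.04 FPKM in the control zygotes, a difference of change of 4.97 ± 0.63 (limma adjusted p = 0.0015). Of 46 nuclear pore and transport genes, 9 were higher and 1 lower (Nup43) in the knockout, or 19.6% and 2.17%. In the control 11 were higher and 6 lower, or 23.9% and 13.0%. Nup43 lost its knockout call without either knockout oocyte library or knockout zygote replicate 1 and with the compared groups fitted alone (limma adjusted p from 0.0815 to 0.119). Tnpo1, transportin, rose from 1.69 and 1.48 to 15.4 and 10.9 FPKM (2.35 ± 0.26, limma adjusted p = 0.000923), with a control change of 2.28 ± 0.26 (limma adjusted p = 0.000116). Without oocyte replicate 1 the splicing genes higher numbered 2 and the transport genes 1, and after median-ratio rescaling 8 and 3.

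Of 83 genes of the RNA polymerase II machinery, 12 were higher and 5 lower in the knockout, 23 and 30 in the control, and 16 had a higher change in the knockout. The knockout counts are 14.5% and 6.02% of the list, near the 15.2% and 6.07% of all members. The control counts are 27.7% and 36.1%, beside 20.5% and 27.5% of all members. A higher change was called in 19.3% of the list and in 9.85% of all members. Taf3, a TFIID subunit that reads H3K4 trimethylation, rose from 10.3 and 11.8 to 69.4 and 47.9 FPKM (2.20 ± 0.24, limma adjusted p = 0.000923). After median-ratio rescaling the split was 4 higher and 10 lower. Of 64 translation factors, 11 were higher and 2 lower in the knockout, 15 and 24 in the control, and 11 had a higher and 2 a lower change in the knockout. The knockout counts are 17.2% and 3.1% of this list, beside 15.2% and 6.07% of all members. The control counts are 23.4% and 37.5%, beside 20.5% and 27.5%. The higher and lower changes are 17.2% and 3.1%, beside 9.85% and 0.983% of all members. Eif3a and Eif5b, which act in translation initiation, had knockout changes of 1.23 ± 0.21 (limma adjusted p = 0.00333) and 1.19 ± 0.22 (limma adjusted p = 0.00426). Without zygote replicate 2, translation factors had 12 members higher and 16 lower.

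Smaller numbers moved in the other lists. DNA replication had 6 of 50 higher and 4 lower in the knockout, chaperones 4 of 31 and 2, genes of glycolysis and the citrate cycle 4 of 38 and 3, and p53 and apoptosis genes 2 of 24 and 1 (Mdm2 and Trp53inp1, and Birc5). Mdm2 lost its knockout call without either knockout oocyte library or knockout zygote replicate 1, after median-ratio rescaling and with the compared groups fitted alone (limma adjusted p from 0.0602 to 0.16). Birc5 lost its knockout call without either knockout oocyte library or knockout zygote replicate 1, with no filter on low values and with the compared groups fitted alone (limma adjusted p from 0.0607 to 0.136). In that order of the lists, the higher calls are 12%, 12.9%, 10.5% and 8.33%, beside 15.2% of all members. The lower calls are 8%, 6.45%, 7.9% and 4.17%, beside 6.07%. In the control the lower calls are 34%, 38.7%, 36.8% and 25%, beside 27.5% of all members. A higher change in the knockout was called in 10%, 19.35%, 13.2% and 4.17%, beside 9.85% of all members. After median-ratio rescaling falls outnumbered rises in DNA replication (8 and 3), chaperones (5 and 1) and glycolysis and the citrate cycle (6 and 1). Trp53inp1, a p53 target in stress responses, rose from 7.8 and 5.48 to 26.8 and 22.4 FPKM (1.67 ± 0.24, limma adjusted p = 0.00217) and had a control change of 2.03 ± 0.24 (limma adjusted p = 0.000161).

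The lists of zygotic genome activation and of imprinted genes were small. Of 17 measured genes of the early activation list, 3 were higher and 2 lower in the knockout, or 17.6% and 11.8%. Over all members these shares were 15.2% and 6.07%. No member was called higher after median-ratio rescaling or quantile normalization, and none in either direction without either knockout oocyte library. The counts were 1 and 0 without zygote replicate 1, and 1 and 3 without zygote replicate 2. Zscan4d stood at 8.66 and 11.5 FPKM in knockout oocytes and 3.92 and 5.69 FPKM in knockout zygotes, which did not pass (limma adjusted p = 0.232). Of 22 genes imprinted by maternal DNA methylation, 2 were higher (Usp29 and Zrsr1) and 2 lower (Sgce and Commd1) in the knockout. Each count is 9.09% of that list, beside 15.2% higher and 6.07% lower over all members. Sgce, an imprinted member of the sarcoglycan family, fell from 4.56 and 4.47 to 1.42 and 1.32 FPKM (-1.31 ± 0.27, limma adjusted p = 0.0129) and was listed at 0 in both control zygotes after 0.794 and 0.918 FPKM in control oocytes. Sgce lost its knockout call without either knockout oocyte library or knockout zygote replicate 1 and with 0.1 added in place of 1 (limma adjusted p from 0.0589 to 0.193). Usp29 lost its knockout call without either knockout oocyte library or either knockout zygote library, after median-ratio rescaling, after quantile normalization, with 0.1 added in place of 1, with no filter on low values and with the compared groups fitted alone (limma adjusted p from 0.0516 to 0.273). Zrsr1 lost its knockout call without either knockout oocyte library or knockout zygote replicate 2 and with no filter on low values (limma adjusted p from 0.0512 to 0.118). Commd1 lost its knockout call without knockout oocyte replicate 1 (limma adjusted p = 0.066). Without oocyte replicate 1 no gene of this list was called in the knockout.

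A small set of genes was higher in the knockout oocyte than in the knockout zygote, where all of them but Lrrc17 were at or near 0. Dcpp1 and Dcpp2, near-identical genes named for demilune cell and parotid proteins, were among them. Dcpp1 stood at 24.3 and 20.1 FPKM and Dcpp2 at 23.8 and 15.8 FPKM in the knockout oocytes. In the knockout zygotes Dcpp1 was listed at 0 in both libraries, and Dcpp2 at 0.65 and 0.69 FPKM. Summed over both genes the knockout oocytes had 48.1 and 36 FPKM, the knockout zygotes 0.65 and 0.69 FPKM, the control oocytes 0.878 and 0.846 FPKM, and the control zygotes 8.75 and 4.25 FPKM. So the order of the stages was opposite in the 2 genotypes. The differences were -5.96 ± 0.62 (limma adjusted p = 0.000866) for Dcpp1 and -5.48 ± 0.66 (limma adjusted p = 0.00163) for Dcpp2.

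Stk32a, a serine/threonine kinase gene, fell from 31.5 and 24.3 to 0.224 and 0.158 FPKM in the knockout, while it was at 13.4 and 6.85 FPKM in control oocytes and 14.4 and 13.5 FPKM in control zygotes, a change that did not pass. Its knockout change was -4.68 ± 0.70 (limma adjusted p = 0.00285) and its difference -5.28 ± 0.98 (limma adjusted p = 0.0107). Scimp, an adaptor of immune receptor signalling, fell from 41.3 and 43.6 to 1.25 and 0.661 FPKM in the knockout (-4.58 ± 0.40, limma adjusted p = 0.000824) and from 7.75 and 15.2 to 0.616 and 0.682 FPKM in the control. Lrrc17, a secreted leucine-rich repeat protein gene, fell from 97.9 and 64.5 to 7.38 and 10.1 FPKM in the knockout (-3.15 ± 0.32, limma adjusted p = 0.000923), with a difference of -2.80 ± 0.45 (limma adjusted p = 0.00672). In the control it went from 100.4 and 114 to 86.6 and 70.7 FPKM and did not pass. Stk32a lost its difference call without knockout oocyte replicate 1 or control oocyte replicate 2 and with no filter on low values (limma adjusted p from 0.0547 to 0.0595).

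Tnfsf11, the cytokine RANKL, went from 6.38 and 10.1 to 0.523 and 0.139 FPKM in the knockout (-2.87 ± 0.28, limma adjusted p = 0.000923), and Prss30, a serine protease gene, from 6.92 and 4.82 FPKM to 0 in both zygotes (-2.85 ± 0.24, limma adjusted p = 0.000824). Slc39a8, a zinc transporter, was at 22 and 7.07 FPKM in the knockout oocytes and listed at 0 in both knockout zygotes, and did not exceed 0.283 FPKM in the control libraries of either stage. Each of these 3 genes also passed the test of the difference, with -3.37 for Tnfsf11 (limma adjusted p = 0.00159), -3.94 for Prss30 (0.000277) and -4.09 for Slc39a8 (0.00213). Dcpp1, Dcpp2, Scimp, Lrrc17, Tnfsf11, Prss30, Slc39a8 and Stk32a kept their knockout call in every alternative tried, including each left-out library.

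Several of these genes were again high in the knockout libraries at 48 h. Scimp had 35.1 and 27 FPKM there, Lrrc17 35.1 and 68.5 FPKM, Tnfsf11 6.36 and 4.55 FPKM and Prss30 8.08 and 8.2 FPKM. Dcpp1 and Dcpp2 together had 58.3 and 17.9 FPKM. Stk32a had 11 and 0.583 FPKM, with the libraries far apart, and Slc39a8 stayed at 0 and 0.0613 FPKM. These values are set beside the zygote values without a test, because the later step would share the zygote libraries.

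**Figure D4:**
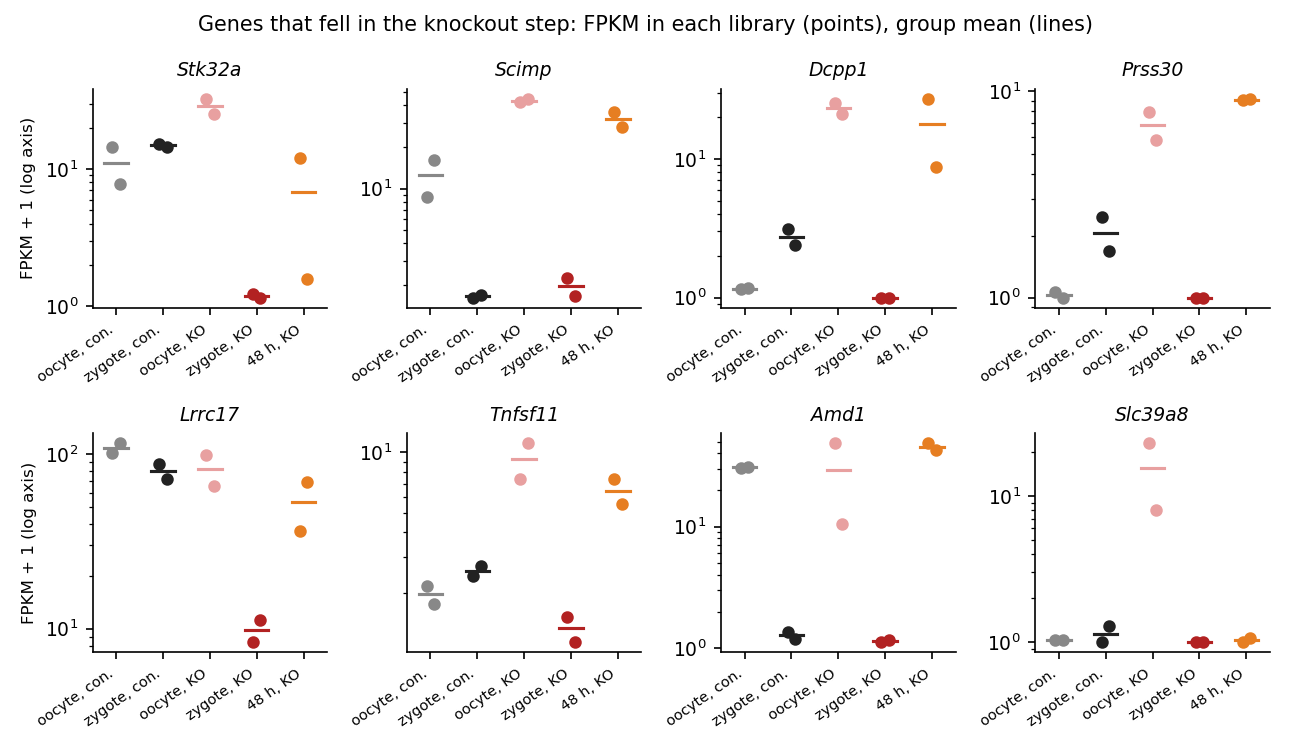
FPKM plus 1, on a log axis whose range differs between panels, of 8 genes that fell in the knockout, in each library of control oocytes and zygotes, knockout oocytes and zygotes, and knockout embryos at 48 h (points), with the group mean as a line. In all 8 panels both knockout zygotes lie below both knockout oocytes, and in all panels but Slc39a8 both 48 h libraries lie above both knockout zygotes. The fall of Amd1 is uncertain, since its sum with the near-identical Amd2 overlapped between the knockout stages.

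Amd1, S-adenosylmethionine decarboxylase of polyamine synthesis, has a near-identical copy, Amd2, and the share given to each symbol differed between libraries of 1 group. Amd1 stood at 47.5 and 9.39 FPKM in the knockout oocytes and 0.124 and 0.164 FPKM in the knockout zygotes, while Amd2 stood at 12.5 and 48.4 FPKM and then 73.6 and 52.9 FPKM. Summed, they gave 60 and 57.8 FPKM in the knockout oocytes and 73.7 and 53 FPKM in the knockout zygotes, which overlap. The control had 29.5 and 30.1 FPKM in oocytes and 56.5 and 49.5 FPKM in zygotes. The fall of Amd1 (-4.38 ± 0.52, limma adjusted p = 0.00141) and the difference of Amd2 (-4.63 ± 0.71, limma adjusted p = 0.00472) are therefore uncertain as values of single genes.

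Genes with a lower change in the knockout than in the control included several whose stages lay in opposite orders in the genotypes. Arntl2, a clock transcription factor, went from 17.4 and 16.5 to 2.25 and 6.05 FPKM in the knockout and from 2.02 and 1.66 to 14.2 and 18.8 FPKM in the control, a difference of -4.72 ± 0.53 (limma adjusted p = 0.00125). Cth, cystathionine gamma-lyase, went from 16.9 and 16.5 to 6.98 and 7.22 FPKM and from 10.6 and 8.17 to 26.3 and 46.2 FPKM, a difference of -3.13 ± 0.42 (limma adjusted p = 0.00265). In both genes the stages of each genotype did not overlap and lay in opposite orders. Csnk1g3, a casein kinase gene, went from 9.23 and 6.74 to 4.12 and 4.57 FPKM in the knockout, which did not pass, and from 5.37 and 4.76 to 22.4 and 14.7 FPKM in the control, a difference of -2.59 ± 0.37 (limma adjusted p = 0.00361). Cts3, a cathepsin, and Tmem242, a transmembrane protein gene, fell in the knockout, with changes of -1.68 ± 0.27 (limma adjusted p = 0.00448) and -2.85 ± 0.30 (limma adjusted p = 0.00105). Arntl2 lost its knockout call without knockout oocyte replicate 1 or knockout zygote replicate 1 (limma adjusted p from 0.0587 to 0.0746). Cth lost its knockout call without either knockout oocyte library or knockout zygote replicate 1 and with no filter on low values (limma adjusted p from 0.0577 to 0.143). Cts3 lost its knockout call without knockout oocyte replicate 1 (limma adjusted p = 0.0616).

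Transcript length moved with the change in both genotypes. Members called higher in the knockout had a median length of 4120 nt and those called lower 1475 nt, beside 2746.5 nt over all members with a coding transcript. In 5 classes of equal size from the shortest to the longest transcripts, the median knockout change was -0.45, -0.09, 0.12, 0.23 and 0.49, and the median control change -1.04, -0.33, -0.04, 0.24 and 0.60. In the shortest class, of 138 to 1549 nt, 3.36% were higher and 15.7% lower in the knockout, and 6.99% and 56.5% in the control. In that class 22.6% had a higher change in the knockout, against 3.84% in the longest. The ribosomal, mitochondrial, proteasome and histone genes above are short, and the part of length in their values was not tested. In the longest class, 32.0% were higher in the knockout and 40.4% in the control. Named rises included long transcripts, such as Mll3 at 14967 nt and Pde3a at 12302 nt, and shorter ones, such as Btg4 at 1486 nt and Cpeb4 at 2312 nt. The part of length was likewise not tested in lists with many rises, such as maternal RNA decay and H3K36 and H3K4 methylation enzymes. The level in the knockout oocyte also moved with the change. The median knockout change was 0.31 in the lowest of 5 classes of members by that level and -0.32 in the highest class, which held 289 of the 605 members called lower. The oocyte level enters both quantities, so this is a description only.

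**Figure D5:**
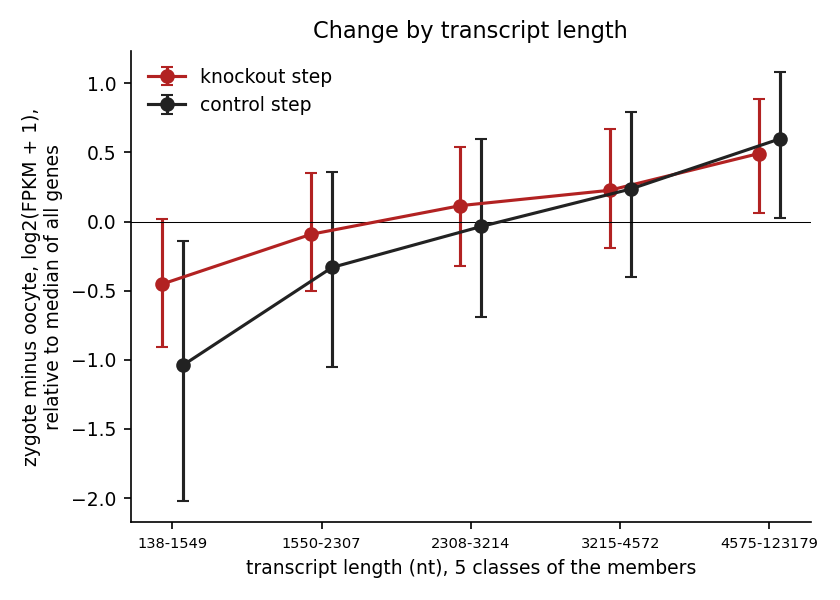
Median change from oocyte to zygote (points) with the interquartile range (bars), in log2(FPKM + 1) relative to the median of all genes tested, by 5 classes of transcript length for members with a coding transcript. Both steps climb from the shortest to the longest class, the knockout from -0.45 to 0.49 and the control from -1.04 to 0.60.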

How the data were processed

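The authors deposited FPKM values, already scaled to transcript length and to the library's mapped fragments. Without giving roles, the submitters' processing notes list Cufflinks 2.0.2, the mm9 build and TopHat2 2.0.11. Libraries were made with Smart-seq2, per the labels' protocols. From the 12-library table, genes at 1 FPKM or more in at least 2 libraries were tested in limma 3.58.1 (R 4.3.3) on log2(FPKM + 1), with 6 group means, a variance trend and Benjamini-Hochberg adjustment over all 12199 genes; fold changes on this scale understate low genes. Fragment numbers are estimates, and 1 fragment on a 2 kb transcript is worth 0.0285 to 0.041 FPKM in knockout oocytes and 0.148 to 0.156 FPKM in knockout zygotes. An exact 0 can be a failed estimate. The members and gene lists were chosen with earlier results of these data known. Genes named were Setd2, a set of anchor genes, the 15 largest rises and falls among called members with a mean of at least 5 FPKM and separate groups, up to 6 called members of each of 23 lists by adjusted p, and the 15 largest differences each way. Same-numbered libraries had correlated deviations of 0.0158 (knockout) and -0.131 (control), so the numbers do not pair them. In simulated data, the fit recovered 32% of 2-fold and 95.2% of 4-fold rises in the knockout step. In the difference it recovered 4.8% and 70%. Each draw changed 50 genes of each size, far fewer than the calls here, so recovery in the data may differ. A difference that did not pass is therefore not shown to be absent. Sequences and lengths come from GENCODE vM21 on GRCm38, matched by symbol. The other tables of the series, normalized separately, were not used here.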

Additional observations from a re-analysis of the deposited data

Results flagged for a closer look

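The change from oocyte to zygote differed between knockout and control for 1080 members by limma's test of the difference. The 30 named members with the largest differences are given here as the knockout change minus the control change, in log2(FPKM + 1) relative to the median of all genes tested. Each passed that test, but 5 did not under every alternative. By limma, the adjusted p was then 0.0503 to 0.0724 for Rps18 (6 settings), 0.0547 to 0.0581 for Fam25c (3), 0.0566 to 0.0948 for H2-Aa (7), 0.0515 for Manba (without knockout oocyte replicate 1) and 0.0547 to 0.0595 for Stk32a (3).

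Higher in the knockout were Rps18 at 7.60, Upp1 at 5.89, Rpl26 at 5.52, Cox17 at 4.98, Snrpd2 at 4.97, Mos at 4.70, Dbt at 4.60, Pnpla3 at 4.60, Hint3 at 4.54, Rpl41 at 4.38, Slirp at 4.25, Khdc3 at 4.22, Rps20 at 4.18, Fam25c at 4.12 and Rps27a at 4.10. Among them, 4 encode proteins of the small or large ribosomal subunit beside Rps18, Cox17 and Slirp act in mitochondria, and Snrpd2 is a core spliceosomal protein. Rps18 and Rpl41 have retrocopies that can share reads.

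Lower in the knockout were Csnk1g3 at -2.59, Cts3 at -2.75, Lrrc17 at -2.80, H2-Aa at -2.86, Cth at -3.13, Tmem242 at -3.15, Tnfsf11 at -3.37, Manba at -3.65, Prss30 at -3.94, Slc39a8 at -4.09, Amd2 at -4.63, Arntl2 at -4.72, Stk32a at -5.28, Dcpp2 at -5.48 and Dcpp1 at -5.96. Manba is lysosomal beta-mannosidase and H2-Aa a class II histocompatibility gene. Amd2 stands beside its near-identical copy Amd1, and Dcpp1 beside Dcpp2, so the values of single genes in these pairs are uncertain.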

How the results depend on the processing

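No named call reversed under the alternatives run, but the split of calls turned with the scaling. Higher and lower calls were 1515 and 605 in the knockout, and 871 and 1188 after median-ratio rescaling; in the control they were 2043 and 2737, and 2801 and 2312 after quantile normalization. Members called numbered 2120 in the knockout, 4780 in the control and 1080 in the difference. Leaving out 1 library gave 307 to 2816 in the knockout, 2971 to 4009 in the control and 308 to 1861 in the difference. With 1 library left out, the remaining one was assumed to vary like the other groups. With no filter on low values the difference had 510 calls over 19451 genes tested. The other settings (0.1 added in place of 1, a filter at 5 FPKM, the rescalings, the compared groups alone, no variance trend) kept each total of calls within 1.5 times, though not each direction, as in the splits above and in the lower calls of the difference (98, and 253 after quantile normalization). The replicate block, on numbers shared without a shared source, gave 2188, 4871 and 1253 calls. Exchanging the numbers of the control zygotes, an alternative chosen after seeing the data, gave 4990 in the control. Of 165 named knockout calls 52 passed under each alternative, of 151 control calls 116, and of 59 difference calls 37. In 113 of the knockout calls the loss came with at least 1 left-out library; the cause was not tested. Zygote libraries of 3.08 to 3.41 M fragments limit what can be said of genes below about 1 FPKM, and with 2 libraries a group the calls rest on spread shared across genes.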
